A study of Mus musculus with 16 samples.

Results

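The effect of losing Atg7 was measured in regulatory T (Treg) cells taken from rapamycin-treated mice, by comparing 4 arrays of Atg7-/- cells with 4 arrays of Atg7+/- cells, out of 16 arrays in the series. Every gene with a probe set carrying a single gene symbol was considered, each represented by its brightest probe set. This gave 22180 genes, of which 16760 exceeded the level set as a floor for testing in at least 1 group and 5420 did not. The Atg7-/- cells came from Atg7 fl/fl Foxp3-Cre mice and the Atg7+/- cells from Atg7 +/fl Foxp3-Cre mice, both on the C57BL/6 strain, and both groups were injected intraperitoneally on 5 days with a daily rapamycin dose of 4 mg per kg. The other 8 arrays hold the same genotypes from untreated mice, 4 arrays each. All cells were sorted from spleen and lymph nodes as CD4+ Foxp3-YFP+ cells and stimulated for 4 hours on plates coated with anti-CD3 and anti-CD28 before RNA extraction, so no group represents resting cells. The Cre is driven by Foxp3, so recombination is aimed at Foxp3-expressing cells, and the Atg7+/- cells also carry the Cre and 1 floxed allele. The ages of the mice, and whether the 4 replicates of a group came from separate mice, are not stated in the labels, so p-values measure the spread between arrays, which may be partly technical.

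Treg cells are the CD4+ T cells that restrain immune responses, and they depend on the transcription factor Foxp3. Atg7 is the E1-like enzyme that activates the Atg12 and Atg8 (LC3 and Gabarap) conjugation systems, and autophagosomes form poorly without it. Rapamycin inhibits the mTOR complex mTORC1, a kinase that promotes protein synthesis, mitochondrial and nucleotide metabolism and cell growth and that restrains the initiation of autophagy. In Treg cells, autophagy is known to support survival and lineage stability, and unrestrained mTORC1 and glycolytic activity are known to weaken suppressive function.

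Values are log2 levels after robust multi-array averaging (RMA), and fold changes are rapamycin-treated Atg7-/- over rapamycin-treated Atg7+/- cells unless another pair is named. A gene is said to have risen or fallen where limma's adjusted p (Benjamini-Hochberg over 16760 genes) was under 0.05. Gene lists and their members were chosen with earlier results of these data known. The share of a list called, set beside that of all genes, is therefore a description and not a separate test. Because each array holds RNA from a population, fewer cells expressing a gene and less RNA per cell cannot be told apart. The defining markers of Treg cells were high on all 8 arrays: Foxp3 averaged 10.99 in Atg7-/- cells and 11.34 in Atg7+/- cells, and Il2ra, the IL-2 receptor alpha chain, averaged 12.06 and 12.05 in the same order. The B cell markers had mean levels of 3.89 to 3.96 on the Atg7-/- arrays and 3.83 to 3.96 on the Atg7+/- arrays, and erythroid markers 3.85 to 4.05 and 3.95 to 4.06, all near the testing floor of 3.55. Not every such list was that low: dendritic cell markers had means of 5.48 to 5.92 and 5.50 to 5.76. The Y-linked genes Eif2s3y (8.16 to 9.37) and Kdm5d (7.49 to 7.84) were well above that floor on all 16 arrays while Xist read 2.68 to 3.30. The third Atg7-/- rapamycin array stood apart: its score on the second principal component, which held 14.6% of the variance, was -29.8, against -12.9 to -7.57 for the other 3 Atg7-/- arrays. Where a named gene lost its call without this array, the adjusted p without it is given.

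The targeted gene itself gave little contrast between the genotypes. Atg7 read 6.73, 6.59, 6.02 and 6.59 on the 4 Atg7-/- arrays, against 6.67, 6.79, 6.82 and 6.85 on the 4 Atg7+/- arrays. The groups overlapped, and the log2 fold change of -0.30 ± 0.13 (SE) had an adjusted p of 0.232. The lowest Atg7 value was on the third Atg7-/- array. Where the probe set lies relative to the floxed exons is not stated, the reference cells already lack 1 functional allele, and recombination can leave a transcript that the probes still bind, so the level of this probe set does not check the genotype labels.

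Under rapamycin, 543 genes differed between Atg7-/- and Atg7+/- cells, which is 3.24% of those tested. Of these, 320 were higher (1.91%) and 223 were lower (1.33%) in the Atg7-/- cells. Most differences were small: the median absolute log2 fold change of the 543 genes was 0.48, and 8 genes rose and 12 fell by at least 2-fold. The Atg7-/- and Atg7+/- arrays did not overlap for 485 of the 543 genes, whereas 9.77% of all tested genes had groups that did not overlap, 6.01% with the Atg7-/- arrays higher and 3.76% with them lower. The number depended strongly on which arrays entered the fit. The count came to 20 genes, 6 higher and 14 lower, when only the 8 rapamycin arrays were used. The 16-array fit shares 1 estimate of spread per gene, and the root mean square SD was 0.229 in the Atg7-/- rapamycin group, above that of the others (0.183 in rapamycin Atg7+/-, 0.188 in untreated Atg7-/-, 0.172 in untreated Atg7+/-). Leaving out single rapamycin arrays gave 95 genes without Atg7+/- replicate 2, 223 without Atg7+/- replicate 1, 255 without Atg7+/- replicate 4, 269 without Atg7-/- replicate 4 and 287 without Atg7-/- replicate 3. The share of calls that were higher was 58.9%, 68.9% after quantile normalization, 72.3% after centring each array on its median, 47.1% without Atg7+/- replicate 1 and 40.1% without Atg7-/- replicate 3.

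**Figure D1:**
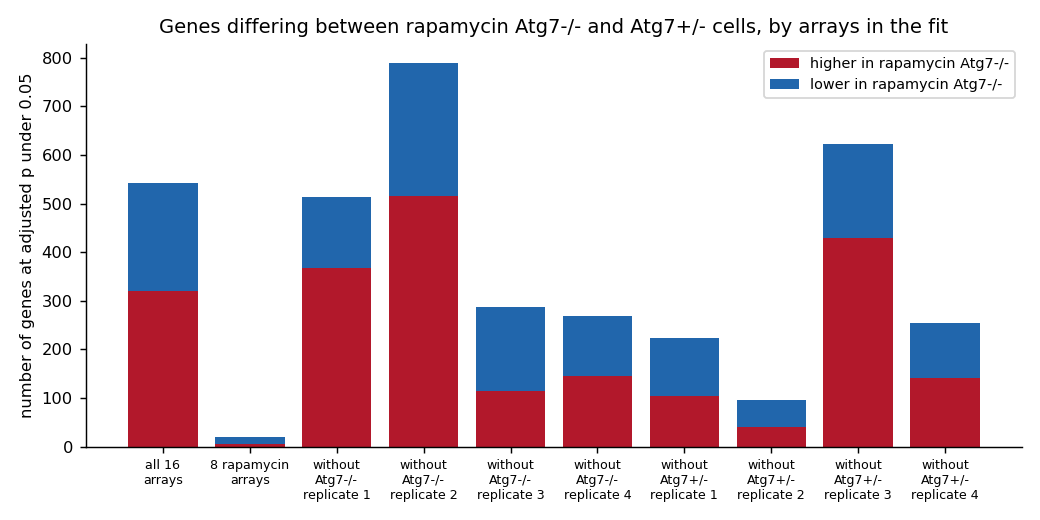
Number of genes with limma adjusted p under 0.05 between rapamycin Atg7-/- and rapamycin Atg7+/- cells (y axis), split into higher and lower, with all 16 arrays, with the 8 rapamycin arrays alone, and with each of the 8 rapamycin arrays left out of the 16-array fit (x axis). The count is 543 with all arrays, 20 with the 8 arrays, and 95 to 789 when 1 rapamycin array is left out.

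The genes that kept their call in every alternative fit numbered 17 and give the firmest view of what differed. Actg2, the gamma smooth muscle actin, read 7.24, 6.94, 7.94 and 7.04 on the Atg7-/- arrays, against 5.42, 5.71, 5.78 and 5.88 on the Atg7+/- arrays. It was 3.01-fold higher (log2 1.59 ± 0.19 SE, limma adjusted p = 0.000498) and the groups were well apart. Tnfsf14, the TNF-family ligand LIGHT, read 5.79, 5.31, 5.40 and 5.81 against 4.64, 4.66, 4.82 and 4.69 (log2 0.88 ± 0.14, adjusted p = 0.0052). Ccl1, the chemokine that binds Ccr8, rose by 0.70 ± 0.12 (adjusted p = 0.00616). Fndc10, a fibronectin type III domain protein (0.80 ± 0.13, adjusted p = 0.0052), and Rilpl2, a Rab effector (0.78 ± 0.10, adjusted p = 0.000938), completed the 5 that rose. The remaining 12 of these genes fell. All 17 had to be among the 20 genes called with the 8 rapamycin arrays alone, which were 6 higher and 14 lower. Their direction is therefore largely set by that fit and is not a separate result.

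Ptpn13, a large non-receptor tyrosine phosphatase, had the lowest log2 fold change of the 16760 tested genes. Its values were 5.14, 6.21, 6.52 and 5.59 on the Atg7-/- arrays, against 7.64, 7.69, 7.63 and 7.53 on the Atg7+/- arrays. The Atg7+/- arrays lay close together while the Atg7-/- arrays were spread and all lower, and the gene was 3.38-fold lower (log2 -1.76 ± 0.20, adjusted p = 0.000418). Abcb1a, a P-glycoprotein drug efflux pump, read 5.89, 6.65, 6.83 and 6.30 against 7.41, 7.52, 7.73 and 7.86, a 2.31-fold lower level (log2 -1.21 ± 0.16, adjusted p = 0.00161). Nav2, a neuron navigator protein, was 2.10-fold lower (log2 -1.07 ± 0.12, adjusted p = 0.000418) and Neurl3, a RING-type ubiquitin ligase, was 2.07-fold lower (log2 -1.05 ± 0.16, adjusted p = 0.00363). Plagl1, a zinc finger transcription factor on the Treg signature list, read 8.35, 8.49, 8.33 and 8.77 against 9.39, 9.52, 9.32 and 9.46. Its groups were separated by more than the range of either, with a log2 fold change of -0.94 ± 0.11 (adjusted p = 0.000418). Also in this set of 17 were Tinf2, a shelterin subunit at telomeres (-0.70 ± 0.08, adjusted p = 0.000418), Tent5a, a nucleotidyltransferase (-0.78 ± 0.09, adjusted p = 0.000456), Lama5, the laminin alpha-5 chain (-0.66 ± 0.09, adjusted p = 0.00181), and Tbx6, a T-box factor (-0.67 ± 0.11, adjusted p = 0.00616). The other 3 were Dio3os, Lamtor3-ps and 4930555G01Rik, an antisense transcript, a pseudogene and a clone, each of which could share signal with another locus.

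**Figure D2:**
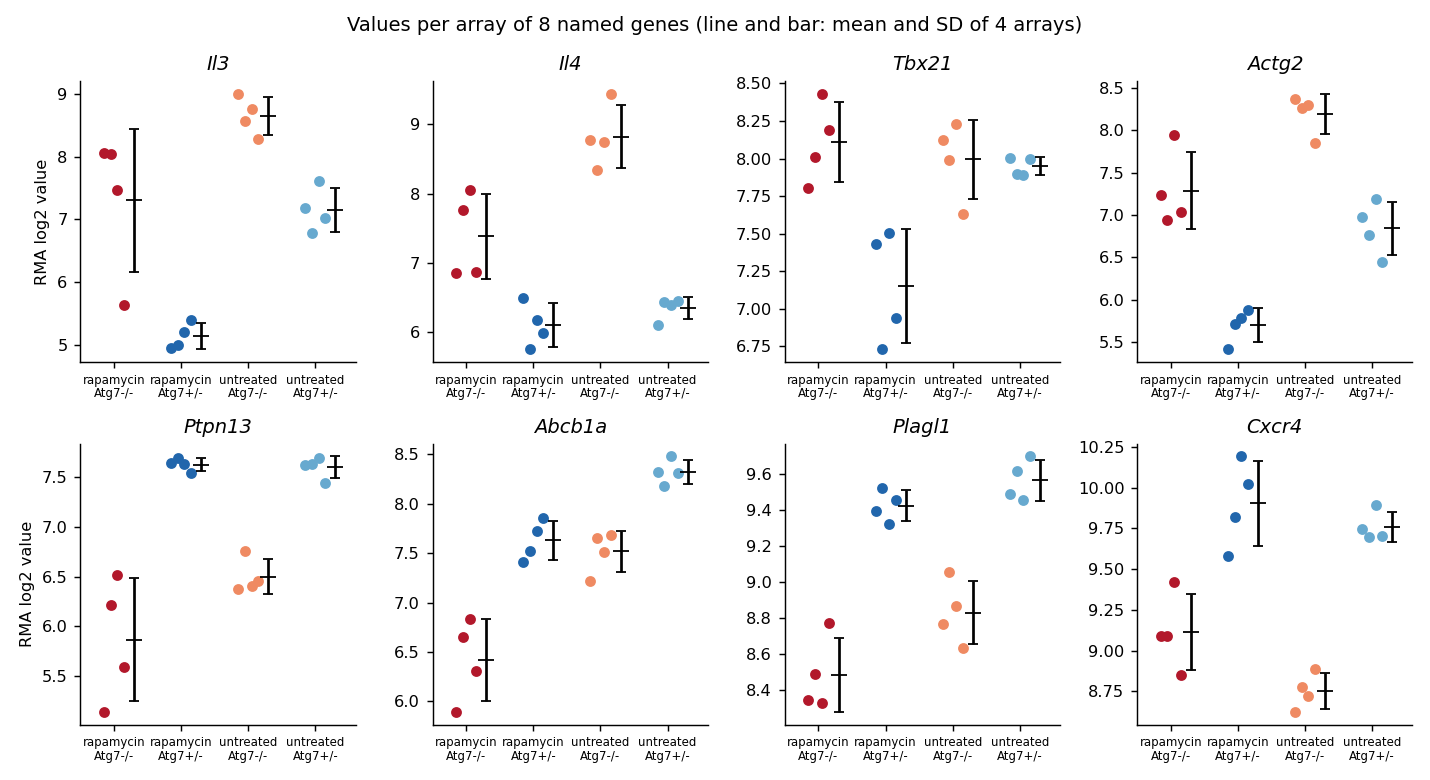
RMA log2 values (y axis, each panel with its own range) of 8 named genes on every array of the 4 groups (x axis), with points for the 4 arrays and a line and bar for the mean and SD. Il3, Il4, Tbx21 and Actg2 are higher and Ptpn13, Abcb1a, Plagl1 and Cxcr4 lower on all 4 rapamycin Atg7-/- arrays than on all 4 rapamycin Atg7+/- arrays.

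The largest log2 fold change was that of a cytokine gene. Il3, the growth factor for basophils and mast cells, read 8.06, 8.04, 7.47 and 5.63 on the Atg7-/- arrays, against 4.95, 4.99, 5.20 and 5.40 on the Atg7+/- arrays. The fourth Atg7-/- array was close to the Atg7+/- range while the other 3 were far above it, and the fold was 4.49 (log2 2.17 ± 0.37, adjusted p = 0.00632). Il4, the defining cytokine of type 2 helper cells, read 6.86, 7.76, 8.05 and 6.87, against 6.49, 5.76, 6.18 and 5.99. The groups did not overlap, with a 2.43-fold higher level (log2 1.28 ± 0.25, adjusted p = 0.0129), although the adjusted p was 0.0653 without Atg7+/- replicate 2. Both genes lost their call when only the 8 rapamycin arrays were fitted, with adjusted p of 0.0714 for Il3 and 0.0752 for Il4. Across the effector cytokine list, 3 of 24 measured members rose (12.5%, against 1.91% of all tested genes) and none fell. The list's median log2 fold change was 0.42, against 0.02 over all tested genes. The third that rose was Tnfsf14, described above. Values were positive for 20 of the 24. Among those that did not pass were a pair chosen for naming after their values were seen: Ifng, the signature type 1 cytokine (5.47, 6.53, 8.31 and 6.73 against 5.59, 5.26, 5.96 and 5.50, log2 1.19 ± 0.39, adjusted p = 0.103), and Il13, a type 2 cytokine (log2 1.07 ± 0.30, adjusted p = 0.0594). The mean level of the list was 6.67, 7.04, 7.60 and 7.05 on the Atg7-/- arrays, against 6.49, 6.49, 6.64 and 6.51 on the Atg7+/- arrays, so the third Atg7-/- array was the highest. Without it the same number of members, 3, rose and the list's median was 0.33.

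The promoter windows of Il3 and Il4 are shown because they hold the core letters GGAAA bound by NFAT, the factor activated by T cell receptor signalling, in different numbers. Sequences are RefSeq windows on GRCm38.p6, running from 250 bases before to 50 bases after the transcript start, written 5′ to 3′ in the direction of transcription with each match on either strand in capitals.
Il3 (chr11:54267230-54267529, minus strand): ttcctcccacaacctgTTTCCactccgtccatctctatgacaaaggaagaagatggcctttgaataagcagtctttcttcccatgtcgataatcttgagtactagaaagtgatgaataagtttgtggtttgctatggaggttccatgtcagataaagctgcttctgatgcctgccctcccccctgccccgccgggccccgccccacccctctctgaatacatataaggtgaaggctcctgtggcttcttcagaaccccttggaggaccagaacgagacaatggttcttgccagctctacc
Il4 (chr11:53618616-53618915, minus strand): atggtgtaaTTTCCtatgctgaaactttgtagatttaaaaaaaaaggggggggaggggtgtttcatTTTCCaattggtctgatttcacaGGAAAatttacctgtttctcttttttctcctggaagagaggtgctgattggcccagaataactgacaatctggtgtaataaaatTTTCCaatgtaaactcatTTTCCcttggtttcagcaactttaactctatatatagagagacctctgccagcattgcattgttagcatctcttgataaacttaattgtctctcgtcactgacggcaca
The Il4 window held 5 matches and the Il3 window 1. Of the 12920 of 16760 tested genes with a window, 59.3% held at least 1 such match and 2.47% held 4 or more, whereas 85.7% of 21 effector cytokine promoters held at least 1 and 14.3% held 4 or more. A match describes letters in this window and is not a measured binding site.

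Some chemokine ligands and cytotoxic granule genes were higher as well. In the chemokine ligand list 3 of 13 members rose (23.1%, against 1.91% of all tested genes) and none fell. Ccl3, an inflammatory chemokine, read 7.74, 6.74, 7.70 and 6.89 in Atg7-/- cells, against 6.03, 5.36, 6.26 and 6.08 in Atg7+/- cells (log2 1.33 ± 0.24, adjusted p = 0.00896). Xcl1, the ligand of the dendritic cell receptor Xcr1, read 9.60, 8.02, 9.03 and 8.46 against 7.82, 7.56, 7.87 and 7.40 (log2 1.12 ± 0.23, adjusted p = 0.0144, and 0.0653 without Atg7+/- replicate 2). Neither gene's groups overlapped. The list's median of 0.38 rested on 1 array, since it was -0.02 without Atg7-/- replicate 3, and the same number of members, 3, rose without that array. Of 14 cytotoxic granule genes, 3 rose (21.4%, against 1.91% of all tested genes) and none fell. Nkg7, a granule membrane protein, rose by 0.94 ± 0.17 (7.84, 7.26, 7.20 and 7.39 against 6.81, 6.40, 6.01 and 6.72, adjusted p = 0.00779). Ctsw, a cathepsin of cytotoxic cells, rose by 0.57 ± 0.11 (adjusted p = 0.0109, and 0.0526 without Atg7+/- replicate 2), and Rab27a, which docks secretory granules, rose by 0.46 ± 0.09 (adjusted p = 0.00934). Gzmb, the granzyme that triggers apoptosis in target cells, chosen after its values were seen, did not rise with them. Its values were 4.70, 6.72, 6.49 and 5.33 in Atg7-/- cells, against 6.57, 6.47, 6.66 and 6.45 in Atg7+/- cells (log2 -0.73 ± 0.30, adjusted p = 0.197). The marker list for CD8 and NK lineages averaged 4.59 to 4.74 on the Atg7-/- arrays and 4.47 to 4.60 on the Atg7+/- arrays, and 2 of their 8 tested members rose, Nkg7 and Cd8b1 (log2 0.72 ± 0.16, adjusted p = 0.0198). Cd8b1 lost its call without Atg7-/- replicate 3 (adjusted p of 0.0507) and when replicate 1 or 2 of the Atg7+/- arrays was left out (at most 0.0631). The other 6 members did not pass: Prf1 (5.80 in Atg7-/- and 5.65 in Atg7+/- cells), Gzmk (4.29 and 4.26) and Klrb1c (3.6 and 3.51) were on the positive side, and Cd8a (4.45 and 4.63), Ncr1 (3.68 and 3.80) and Eomes (4.07 and 4.17) on the negative side. Of 11 conventional T cell markers 1 rose, Cd40lg, the CD40 ligand (log2 0.59 ± 0.14, adjusted p = 0.0301, lost when any of 5 single arrays was left out, with 0.0776 without Atg7-/- replicate 3), and the list means were 7.41 to 7.93 on the Atg7-/- arrays and 7.44 to 7.60 on the Atg7+/- arrays. Of the B cell, plasma cell, macrophage, dendritic cell, neutrophil, erythroid, megakaryocyte and stromal markers, 0 passed. The macrophage list means were 4.50 to 5.32 and 4.73 to 5.19 in the same order of groups, with 5 values positive and 9 negative. The neutrophil list had 5 positive and 5 negative. On Atg7-/- replicate 3 the neutrophil genes S100a8 (7.30) and S100a9 (7.39) and the monocyte gene Ly6c2 (6.74) were higher than on any other rapamycin array. The macrophage gene Lyz2 averaged 6.16 in Atg7-/- cells and 7.02 in Atg7+/- cells. The part of other cells in these results was not tested.

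Transcription factors of effector fates moved in both directions, with 2 of 27 list members higher and 4 lower. The share called was 22.2%, against 3.24% of all tested genes. Tbx21, which encodes the type 1 factor T-bet, read 7.80, 8.01, 8.43 and 8.19 on the Atg7-/- arrays, against 7.43, 6.73, 7.50 and 6.94 on the Atg7+/- arrays. The groups did not overlap, and Tbx21 was 1.94-fold higher (log2 0.96 ± 0.17, adjusted p = 0.00689). Batf, an AP-1 family factor needed for effector differentiation, rose by 0.59 ± 0.12 (adjusted p = 0.0144, and 0.0732 without Atg7+/- replicate 2). Zeb1, a zinc finger repressor of Il2 and of epithelial genes, read 8.86, 9.57, 9.16 and 9.24 against 9.98, 10.27, 9.77 and 9.69, and fell by 0.72 on the log2 scale (SE 0.13, adjusted p = 0.00955). Bcl6, the follicular helper factor, had a log2 fold change of -0.57 ± 0.15 (adjusted p = 0.0485, and up to 0.17 when a single array was left out), so its call was fragile.

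Genes that mark Treg identity leaned lower. The Treg signature list had 4 of 28 members lower and 1 higher, with a median of -0.12. The share called was 17.9%, against 3.24% of all tested genes. Besides Plagl1, Klrg1, an inhibitory lectin-like receptor of terminally differentiated effector Treg cells, read 4.69, 5.51, 6.63 and 5.63 against 6.78, 6.56, 6.84 and 6.91. The third Atg7-/- array reached the Atg7+/- range, and the log2 fold change was -1.16 ± 0.26 (adjusted p = 0.0234, and 0.000732 without that array). The call was lost without Atg7+/- replicate 1, 2 or 4 or Atg7-/- replicate 4 (adjusted p up to 0.0653) and with the 8 rapamycin arrays alone (0.132). Itgb8, an integrin chain that activates latent TGF-beta, fell by 0.47 on the log2 scale (SE 0.10, adjusted p = 0.0204) and lost the call without Atg7+/- replicate 1, 2 or 4 (up to adjusted p = 0.0691). Lad1, a basement membrane anchoring protein, rose by 0.50 ± 0.10 (adjusted p = 0.0154, and up to 0.0633 without Atg7+/- replicate 1 or 2). Foxp3 itself read 11.07, 11.02, 10.84 and 11.05 on the Atg7-/- arrays, against 11.35, 11.46, 11.21 and 11.35 on the Atg7+/- arrays. All 4 Atg7-/- values lay below all 4 Atg7+/- values, but the log2 fold change of -0.35 ± 0.10 had an adjusted p of 0.0662 and did not pass. Flicr, a noncoding RNA gene beside Foxp3 that lowers Foxp3 levels in some Treg cells, was chosen after its values were seen: it read 7.44, 7.40, 7.15 and 7.30 against 8.16, 8.31, 7.81 and 7.85, and fell by 0.71 on the log2 scale (SE 0.12, adjusted p = 0.0052). Of the 8 Treg markers, 0 passed the test.

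Effector Treg genes showed the same mixed picture, with 1 of 25 higher and 3 lower (16% called, against 3.24% of all tested genes). Ahnak, a scaffold protein of calcium signalling, fell by 0.78 on the log2 scale (6.30, 6.90, 6.75 and 6.51 against 7.63, 7.22, 7.26 and 7.46, adjusted p = 0.0052). Fgl2, a secreted suppressive fibrinogen-like protein, read 5.65, 5.93, 6.14 and 5.90 against 6.40, 6.27, 6.55 and 6.55 (log2 -0.54 ± 0.11, adjusted p = 0.0163, and 0.0501 without Atg7+/- replicate 4). Rora, a nuclear receptor of tissue Treg cells, fell by 0.44 on the log2 scale (SE 0.08, adjusted p = 0.00934). Batf, already described, was the member that rose. Of 15 inhibitory receptor genes 2 fell (13.3%, against 1.33% of all tested genes) and none rose. The 2 were Cd200r1 (5.75, 5.87, 6.10 and 5.76 against 6.96, 6.65, 6.36 and 6.59, log2 -0.77 ± 0.14, adjusted p = 0.00982) and Pdcd1, which encodes PD-1 (log2 -0.52 ± 0.11, adjusted p = 0.0198). The Pdcd1 call was lost without Atg7+/- replicate 2 or 4 or Atg7-/- replicate 4, with adjusted p up to 0.0653.

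A few homing receptor and quiescence genes were lower. Cxcr4, the receptor for Cxcl12 that holds lymphocytes in bone marrow and lymphoid niches, read 9.09, 9.09, 9.42 and 8.85 on the Atg7-/- arrays, against 9.58, 9.82, 10.19 and 10.02 on the Atg7+/- arrays. The groups did not overlap and the log2 fold change was -0.79 ± 0.13 (adjusted p = 0.0052). Itga4, the alpha-4 integrin chain, fell by 0.45 on the log2 scale (7.22, 7.36, 7.50 and 7.37 against 7.77, 7.85, 7.76 and 7.87, adjusted p = 0.00955). Ccr7, the lymph node homing receptor, fell by 0.48 (SE 0.11, adjusted p = 0.0301, and up to 0.126 when a single array was left out). In all, 3 of 21 homing receptor genes were lower and none higher. The share called was 14.3% in this list and 14.3% in the quiescence list, against 3.24% of all tested genes. Of 21 quiescence genes 2 fell, Ccr7 and Ccng2, a cyclin of non-dividing cells (log2 -0.62 ± 0.11, adjusted p = 0.00681), and 1 rose, Slfn2, a schlafen protein that keeps T cells quiescent (log2 0.36 ± 0.08, adjusted p = 0.0217, and up to 0.0979 without a single array).

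Of 29 proximal T cell receptor signalling genes 4 were higher and 1 lower, although 0 of the 29 passed without Atg7+/- replicate 2. The share called was 17.2%, against 3.24% of all tested genes. The list's median log2 fold change was 0.04, against 0.02 over all genes, with 17 values positive and 12 negative. The CD3 chain gene Cd3g read 9.69, 9.71, 10.01 and 9.80 in Atg7-/- cells, against 9.16, 9.19, 9.43 and 9.47 in Atg7+/- cells (log2 0.49 ± 0.09, adjusted p = 0.0112, and 0.0589 without Atg7+/- replicate 2). Ptpn6, the phosphatase SHP-1 (0.47 ± 0.10, adjusted p = 0.0158), and Lat, the adaptor downstream of Zap70 (0.43 ± 0.09, adjusted p = 0.0166), rose as well, and each lost its call without Atg7+/- replicate 2, with adjusted p up to 0.0691 and 0.0807. Among 34 early response genes 2 rose and 2 fell (11.8% called), with a median of -0.03, 16 values positive and 18 negative. Egr2, an anergy-linked zinc finger factor (0.44 ± 0.10, adjusted p = 0.0212), and Spry1, a feedback inhibitor of Ras signalling (0.55 ± 0.13, adjusted p = 0.0261), rose. Tnfaip3, which encodes the NF-kappaB inhibitor A20 (-0.47 ± 0.10, adjusted p = 0.0176), and Fosb, an AP-1 subunit (-0.82 ± 0.19, adjusted p = 0.0258), fell. None of these 4 kept its call in every fit without 1 array, and the highest adjusted p was 0.112 for Fosb. For Spry1 it was 0.0619 without Atg7-/- replicate 3.

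Mitochondrial genes formed the largest group that moved in 1 direction. Of 70 mitochondrial ribosome genes, which encode the proteins that translate the mitochondrial genome, 18 rose and none fell, against 1.91% of all genes that rose. The median log2 fold change of the list was 0.34 and 68 of 70 values were positive, against a median of 0.02 over all genes. Mrpl52, a large-subunit protein, read 10.32, 10.32, 10.52 and 10.51 on the Atg7-/- arrays, against 9.66, 9.66, 9.89 and 9.92 on the Atg7+/- arrays (log2 0.64 ± 0.09, adjusted p = 0.00201). Mrpl36, another large-subunit protein, read 8.30, 7.90, 8.50 and 8.22 against 7.36, 7.44, 7.71 and 7.61 (log2 0.70 ± 0.11, adjusted p = 0.0052). Both genes had groups that did not overlap, and both kept their call whichever single array was left out, but not with the 8 rapamycin arrays alone (adjusted p = 0.052 for Mrpl52 and 0.0653 for Mrpl36). Mrpl57 (0.56 ± 0.11, adjusted p = 0.0117) and Mrpl14 (0.54 ± 0.12, adjusted p = 0.0198) also rose, with adjusted p of 0.0592 for Mrpl57 and 0.0757 for Mrpl14 without Atg7+/- replicate 2, and 0.0543 for Mrpl14 without Atg7-/- replicate 3. The mean level of the list was 7.70, 7.60, 7.93 and 7.74 on the Atg7-/- arrays, against 7.34, 7.31, 7.55 and 7.48 on the Atg7+/- arrays. These did not overlap, with the third array highest in both groups. The count of 18 rested on single arrays: it was 4 without Atg7-/- replicate 3, 2 without Atg7+/- replicate 2 and 0 with the 8 rapamycin arrays alone, while the median stayed between 0.27 and 0.40 in all fits.

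**Figure D3:**
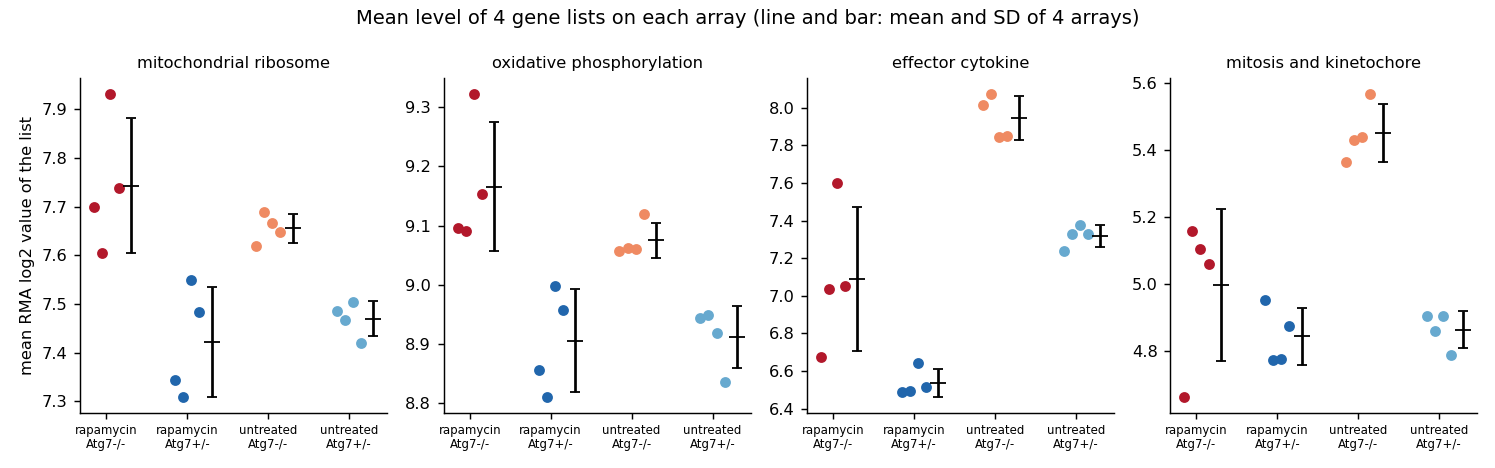
Mean RMA log2 value of all tested members of 4 gene lists (y axis, each panel with its own range) on each array of the 4 groups (x axis), with points for arrays and a line and bar for the mean and SD. The mitochondrial ribosome and oxidative phosphorylation means are higher on every rapamycin Atg7-/- array than on every rapamycin Atg7+/- array, while the mitosis means of these groups overlap.

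The promoter windows of Mrpl52 and Mrpl57 are shown because they carry the core letters CCGGAA bound by ETS-family factors, which many mitochondrial ribosome promoters hold. The windows are RefSeq sequences on GRCm38.p6 as above, with matches on either strand in capitals.
Mrpl52 (chr14:54426659-54426958, plus strand): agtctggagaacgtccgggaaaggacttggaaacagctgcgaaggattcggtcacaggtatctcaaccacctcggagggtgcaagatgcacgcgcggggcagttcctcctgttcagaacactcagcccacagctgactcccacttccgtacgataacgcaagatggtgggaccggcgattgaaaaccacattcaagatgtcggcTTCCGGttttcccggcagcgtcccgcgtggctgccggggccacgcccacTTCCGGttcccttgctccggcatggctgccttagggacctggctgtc
Mrpl57 (chr14:57825989-57826288, plus strand): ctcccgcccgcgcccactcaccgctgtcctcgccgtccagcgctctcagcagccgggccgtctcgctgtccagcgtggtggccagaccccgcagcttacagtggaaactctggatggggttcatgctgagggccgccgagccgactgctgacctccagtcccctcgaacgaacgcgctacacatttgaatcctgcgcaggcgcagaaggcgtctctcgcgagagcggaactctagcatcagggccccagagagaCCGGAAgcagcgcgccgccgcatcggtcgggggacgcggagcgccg
Of the 61 mitochondrial ribosome genes with a window, 54.1% held CCGGAA on either strand, against 23.0% of the 12920 promoters. The E-box letters CACGTG were in 8.20% of the 61 against 9.34% of all, and the antioxidant response element letters TGACNNNGC in 18.0% against 14.0%. A motif of the factor Nrf1 was in 18.0% of the 61 against 8.34% of all. Of the 18 genes of the list that rose, 13 had a window, too few for a share to be read. Shares describe the genes that have a window, and no window was given for the others.

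Nuclear genes for the respiratory chain behaved like the mitochondrial ribosome. Of 48 oxidative phosphorylation genes, 9 rose (18.8%, against 1.91% of all tested genes) and none fell. Values were positive for 47, and the median log2 fold change was 0.27. Ndufb3, an accessory subunit of complex I, read 7.41, 7.38, 7.86 and 7.35 in Atg7-/- cells, against 6.90, 6.94, 6.90 and 7.11 in Atg7+/- cells (log2 0.53 ± 0.13, adjusted p = 0.0341, and 0.0958 without Atg7-/- replicate 3). Ndufc2 (0.46 ± 0.09, adjusted p = 0.0145), Ndufb8 (0.45 ± 0.09, adjusted p = 0.0152) and Ndufa1 (0.41 ± 0.10, adjusted p = 0.0299), all complex I subunits, rose too. Each of these 3 lost its call without Atg7+/- replicate 2 (adjusted p up to 0.123), and Ndufa1 also without Atg7-/- replicate 3 (0.0846). The list means of 9.10, 9.09, 9.32 and 9.15 in Atg7-/- cells all exceeded those of 8.86, 8.81, 9.0 and 8.96 in Atg7+/- cells. The count of 9 was 2 without Atg7-/- replicate 3, 0 without Atg7+/- replicate 2 and 0 with the 8 rapamycin arrays. Of 33 genes of the TCA cycle and fatty acid oxidation, 2 rose, Etfb, the electron transfer flavoprotein beta subunit (0.61 ± 0.14, adjusted p = 0.0261), and Suclg2, a succinyl-CoA ligase subunit (0.38 ± 0.09, adjusted p = 0.037). Neither kept its call without Atg7+/- replicate 2 (adjusted p of 0.114 for Etfb and 0.127 for Suclg2) or without Atg7-/- replicate 3 (0.0635 and 0.0648 for the same genes).

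Some genes for making ribosomes were higher. Of 46 ribosome biogenesis genes 7 were higher (15.2%, against 1.91% of all tested genes) and none lower. Values were positive for 45, and the median was 0.20. Nhp2, a core protein of H/ACA ribonucleoproteins, read 9.77, 9.49, 9.70 and 9.68 against 8.90, 9.05, 9.41 and 9.21 (log2 0.51 ± 0.10, adjusted p = 0.0111, and 0.0554 without Atg7+/- replicate 2). Noc4l (0.48 ± 0.10, adjusted p = 0.0177) and Rrp9 (0.45 ± 0.10, adjusted p = 0.0204), both factors of ribosomal RNA processing, rose, and both lost the call without Atg7+/- replicate 1 or 2. The count of 7 was 3 without Atg7-/- replicate 3 and 0 without Atg7+/- replicate 2 or with the 8 rapamycin arrays. Of 58 cytosolic ribosomal protein genes 1 rose, Rpl27a (log2 0.67 ± 0.16, adjusted p = 0.0317), a gene with many processed copies whose probe set may share their signal. The Rpl27a call was lost when any of 5 single rapamycin arrays was left out (adjusted p up to 0.0928, and 0.0903 without Atg7-/- replicate 3). Myc, the transcription factor that drives ribosome production, read 11.35, 11.22, 11.09 and 11.26 against 11.26, 11.37, 11.20 and 11.20 and did not pass the test (log2 -0.03 ± 0.09, adjusted p = 0.918). Its sign turned with the scaling and with the arrays used, as given at the end. Of 37 proteasome genes 36 had positive values, with a median of 0.19, and 0 passed limma's adjusted test, including Psmb1 (0.35 ± 0.09, adjusted p = 0.0528) and Psma1 (0.45 ± 0.12, adjusted p = 0.0518). Of 17 glycolysis genes 2 rose, Pgam1 (0.35 ± 0.09, adjusted p = 0.0341) and Hk2, the inducible hexokinase (0.29 ± 0.08, adjusted p = 0.0441), and both calls were lost without Atg7+/- replicate 2 and without Atg7-/- replicate 3 (adjusted p of 0.0931 for Pgam1 and 0.075 for Hk2).

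**Figure D4:**
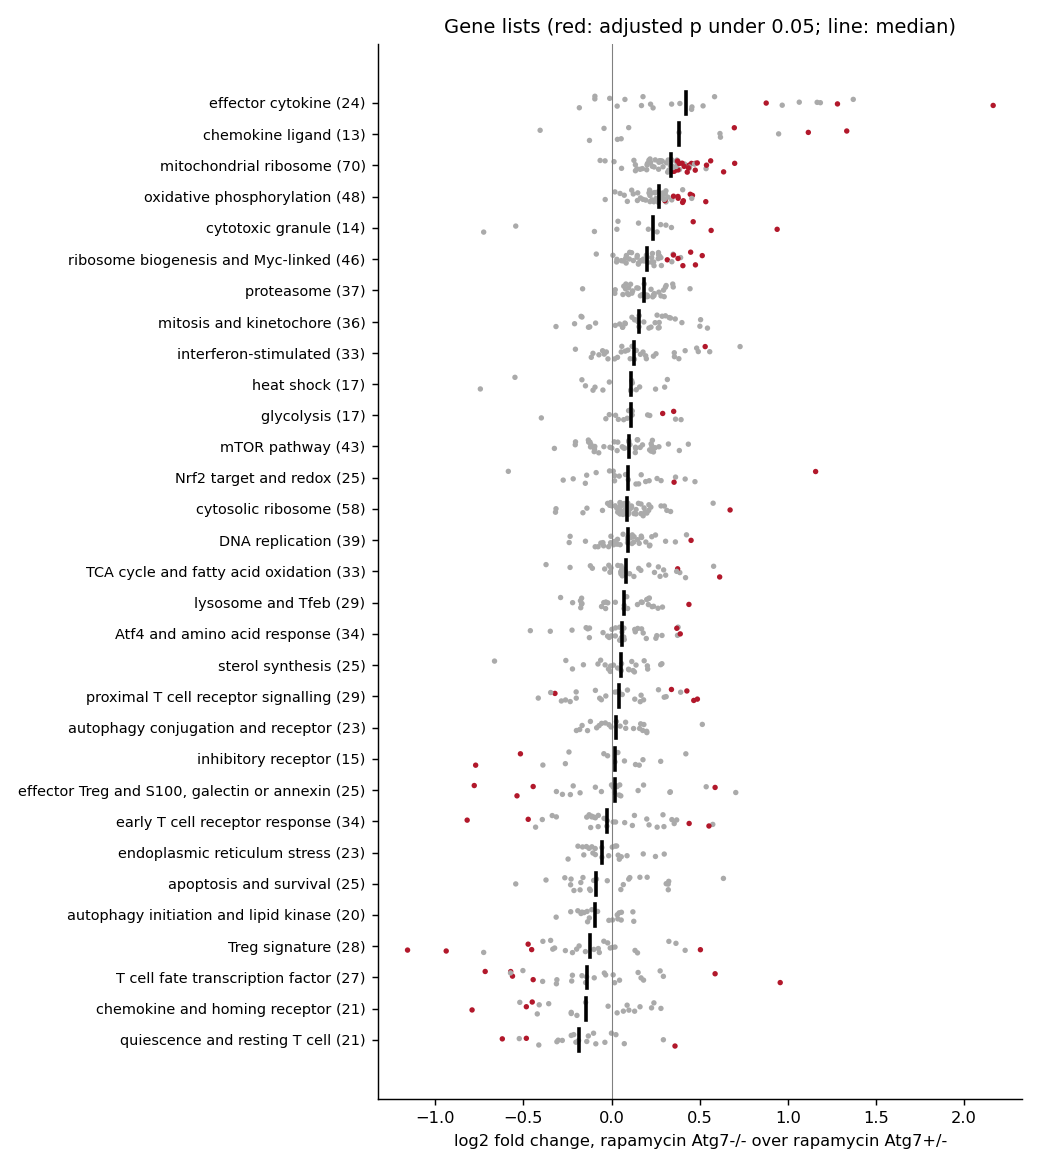
Log2 fold change of every tested member of 31 gene lists (x axis, rapamycin Atg7-/- over rapamycin Atg7+/-), with 1 row per list and its number of members in brackets (y axis), ordered by median. Points are genes, red where limma's adjusted p was under 0.05, and the bar is the median: effector cytokine (0.42), chemokine ligand (0.38) and mitochondrial ribosome (0.34) lists lie highest and the quiescence list (-0.19) lowest.

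Stress and nutrient lists held 0 to 2 calls each, where 3.24% of all tested genes were called. The share was 8% for Nrf2 target and redox genes and 5.88% for Atf4 and amino acid response genes. It was 3.45% for lysosome and Tfeb genes, 3.03% for interferon-stimulated genes and 0 for the other lists of this paragraph. Nqo1, the quinone reductase that is a standard target of Nrf2, read 4.48, 4.81, 5.76 and 4.74 in Atg7-/- cells, against 3.89, 3.53, 4.09 and 3.64 in Atg7+/- cells. Its groups did not overlap and it was 2.23-fold higher (log2 1.16 ± 0.20, adjusted p = 0.00656), but it was 1 of 2 that rose among 25 Nrf2 target and redox genes, the other being Sod2, the mitochondrial superoxide dismutase (0.35 ± 0.09, adjusted p = 0.0441, up to 0.129 when a single array was left out and 0.123 without Atg7-/- replicate 3). The antioxidant response element letters TGACNNNGC were in 4 of the 20 promoters of this list that have a window (20.0%), against 14.0% of all. Of 20 autophagy initiation and lipid kinase genes 0 passed the test, with 12 values negative and a median of -0.10. Of 23 conjugation and receptor genes 0 passed, with a median of 0.03; Gabarapl1, an Atg8 homologue, had the highest value of that list (0.52 ± 0.18, adjusted p = 0.124). Of 29 lysosome and Tfeb genes 1 rose, Atp6v1h, a proton pump subunit (0.44 ± 0.08, adjusted p = 0.0109). No member of the mTOR pathway (43 genes), endoplasmic reticulum stress (23), sterol synthesis (25) or apoptosis (25) lists passed, with medians of 0.10, -0.05, 0.06 and -0.09. Unadjusted p-values were under 0.05 for 18.3% of all genes in this comparison. Of 34 Atf4 and amino acid response genes 2 rose, Shmt1, a folate-cycle enzyme (0.39 ± 0.09, adjusted p = 0.0283), and Wars, the tryptophanyl-tRNA synthetase (0.37 ± 0.10, adjusted p = 0.0441), and both lost the call without Atg7+/- replicate 2 and without Atg7-/- replicate 3 (adjusted p of 0.0521 for Shmt1 and 0.0931 for Wars). Of 33 interferon-stimulated genes 1 rose, Irf8 (0.53 ± 0.13, adjusted p = 0.0299, up to 0.123 without a single array and 0.0813 without Atg7-/- replicate 3).

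The inducible heat shock genes were decided by 1 array. Hspa1a, which encodes an Hsp70 chaperone, read 4.84, 5.37, 8.27 and 5.33 in Atg7-/- cells, against 6.80, 6.31, 7.20 and 6.48 in Atg7+/- cells. Hspa1b, its near-identical copy with which it may share signal, read 6.06, 5.72, 9.39 and 6.31 against 7.24, 7.05, 7.83 and 7.55. On the third Atg7-/- array both genes were above all Atg7+/- arrays, and on the other 3 Atg7-/- arrays both were below them. With all arrays neither passed (log2 -0.74 ± 0.51, adjusted p = 0.488 for Hspa1a, and -0.55 ± 0.55, adjusted p = 0.668 for Hspa1b). Without that array the adjusted p was 0.012 for Hspa1a and 0.0169 for Hspa1b, both lower in Atg7-/- cells.

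The remaining genes with the largest changes came from varied families. Among the 12 largest rises of genes whose arrays did not overlap was Ifitm2, an interferon-induced membrane protein with close paralogues (5.99, 6.78, 7.87 and 7.21 in Atg7-/- cells against 5.12, 5.56, 5.98 and 5.69 in Atg7+/- cells, log2 1.38 ± 0.27, adjusted p = 0.0129, and 0.0525 without Atg7+/- replicate 2). Sema7a, a membrane-anchored semaphorin, read 8.11, 8.25, 8.79 and 8.44 against 7.40, 6.74, 7.62 and 7.04 (log2 1.20 ± 0.17, adjusted p = 0.00181). Next in size was Ppic, a cyclophilin (0.96 ± 0.19, adjusted p = 0.0129, and 0.0663 without Atg7+/- replicate 2). Zfp455, a zinc finger gene, followed (0.95 ± 0.17, adjusted p = 0.00934). Klf4, a zinc finger factor of quiescent cells, was outside that choice because its arrays overlapped, and is named after its values were seen: it read 4.64, 5.35, 6.01 and 4.74 against 5.88, 6.39, 6.84 and 6.67 (log2 -1.26 ± 0.24, adjusted p = 0.0109). Among the 12 largest falls without overlap, predicted genes and odorant receptors left out, Vps37b, an ESCRT-I subunit of endosomal sorting, read 7.92, 9.0, 8.92 and 8.40 against 9.07, 9.81, 9.97 and 9.57 (log2 -1.05 ± 0.20, adjusted p = 0.0111, and 0.0554 without 1 array). Dgat1, which makes triglycerides, read 8.06, 8.83, 8.82 and 8.53 against 9.26, 9.64, 9.69 and 9.64 (log2 -1.0 ± 0.14, adjusted p = 0.00181). Groups did not overlap for any of these genes other than Klf4. The unconventional myosins Myo3b (log2 -1.04 ± 0.19) and Myo1d (log2 -1.03 ± 0.17), the phosphodiesterase Pde2a (log2 -0.95 ± 0.16) and Wdr5b (log2 -0.95 ± 0.14) fell with adjusted p between 0.00363 and 0.00827. H60b, a ligand of the receptor NKG2D from a family of similar genes, had a log2 fold change of -0.98 ± 0.24 (adjusted p = 0.0312, up to 0.129 without a single array and 0.0884 without Atg7-/- replicate 3). Uty, a Y-linked demethylase gene, fell by 1.01 on the log2 scale (SE 0.17, adjusted p = 0.00616), while the other Y-linked genes Eif2s3y and Kdm5d did not pass (adjusted p = 0.52 and 0.648).

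MicroRNA gene probe sets leaned lower in Atg7-/- cells. Of 262 tested microRNA genes 193 (73.7%) had a negative log2 fold change, against 46.4% of all genes, and their median was -0.12. The share of negative values depends on how the arrays are scaled. The array medians ran from 4.41 on Atg7-/- replicate 3 to 4.63 on Atg7+/- replicate 1. Centring the arrays moved the median of all genes from 0.02 to 0.08. The lean was not tested after centring. Such probe sets on a gene array can read the primary transcript or the host gene rather than the mature microRNA. Of the 262, 2 passed the test and both fell, and they and their cluster partners were chosen for naming after their values were seen. Mir16-2 read 6.53, 6.82, 5.75 and 6.35 against 7.11, 7.52, 7.56 and 7.03 (log2 -0.95 ± 0.20, adjusted p = 0.0195), with groups that did not overlap, and 0.0845 was the highest adjusted p without a single array. Mir27a read 6.46, 5.33, 5.47 and 5.72 against 6.65, 6.65, 6.15 and 6.79 (log2 -0.81 ± 0.21, adjusted p = 0.0422), with overlapping groups, and lost its call when any of 6 rapamycin arrays was left out (adjusted p of 0.116 without Atg7-/- replicate 3). The mature products are shown because the first 3 share a seed, the bases 2 to 8 that pair with targets, here in capitals, in the RefSeq annotation of GRCm38.p6.
miR-16-5p, from Mir16-2 (chr3:69009918-69009939, plus strand): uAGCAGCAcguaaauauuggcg
miR-15b-5p, from Mir15b (chr3:69009775-69009796, plus strand): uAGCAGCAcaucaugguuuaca
miR-15a-5p, from Mir15a (chr14:61632075-61632096, minus strand): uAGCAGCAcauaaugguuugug
miR-27a-3p, from Mir27a (chr8:84208727-84208747, plus strand): uUCACAGUggcuaaguuccgc
miR-23a-3p, from Mir23a (chr8:84208563-84208583, plus strand): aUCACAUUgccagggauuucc
Mir15b, which lies beside Mir16-2 on chromosome 3, had a log2 fold change of -1.0 ± 0.31 (adjusted p = 0.0807), and Mir15a, on chromosome 14, one of -0.65 ± 0.19 (adjusted p = 0.07). Smc4, the condensin gene that hosts Mir15b and Mir16-2, fell by 0.31 on the log2 scale (10.51, 10.57, 10.60 and 10.49 against 10.79, 10.94, 10.85 and 10.82, adjusted p = 0.0234), and the call was lost without Atg7+/- replicate 2 or 4 or Atg7-/- replicate 4 (adjusted p up to 0.103) and with centred arrays. Mir23a, the cluster partner of Mir27a on chromosome 8, had a log2 fold change of -0.71 ± 0.26 (adjusted p = 0.148). Of 6 tested microRNA genes with the seed AGCAGCA, 4 were negative and 1 passed the test.

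The same genotype comparison in untreated mice takes its group means from 8 other arrays. Both comparisons share 1 estimate of spread per gene, so genes with a low spread are favoured in both sets of calls. The overlap of calls is therefore not that of 2 separate tests, whereas the sign of an effect does not depend on that estimate. With each comparison fitted on its own 8 arrays, 20 genes passed under rapamycin and 708 in untreated cells. The counts below are from the shared fit. In untreated cells 527 genes passed (3.14%), 294 higher (1.75%) and 233 lower (1.39%). That count was 284 to 333 when any 1 of the 4 untreated Atg7+/- arrays, or replicate 1 or 4 of the untreated Atg7-/- arrays, was left out. A total of 173 genes passed in both comparisons, all in the same direction, 81 higher and 92 lower, which is 1.03% of the tested genes. They made up 31.9% of the genes called under rapamycin and 32.8% of those called in untreated cells. Of the 370 genes called under rapamycin and not in untreated cells, 349 had the same sign in untreated cells. The share of all tested genes with the same sign in both comparisons was not computed, so this count has no baseline. The difference between the 2 genotype effects was tested directly, and 0 genes passed limma's adjusted test (smallest adjusted p = 0.139), while 1052 (6.28%) had an unadjusted p under 0.05. Actg2, for example, rose by 1.59 under rapamycin and by 1.35 in untreated cells, and Ptpn13 fell by 1.76 under rapamycin and by 1.10 in untreated cells. These effects were not shown to differ (limma adjusted p of the difference 0.914 for Actg2 and 0.792 for Ptpn13).

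**Figure D5:**
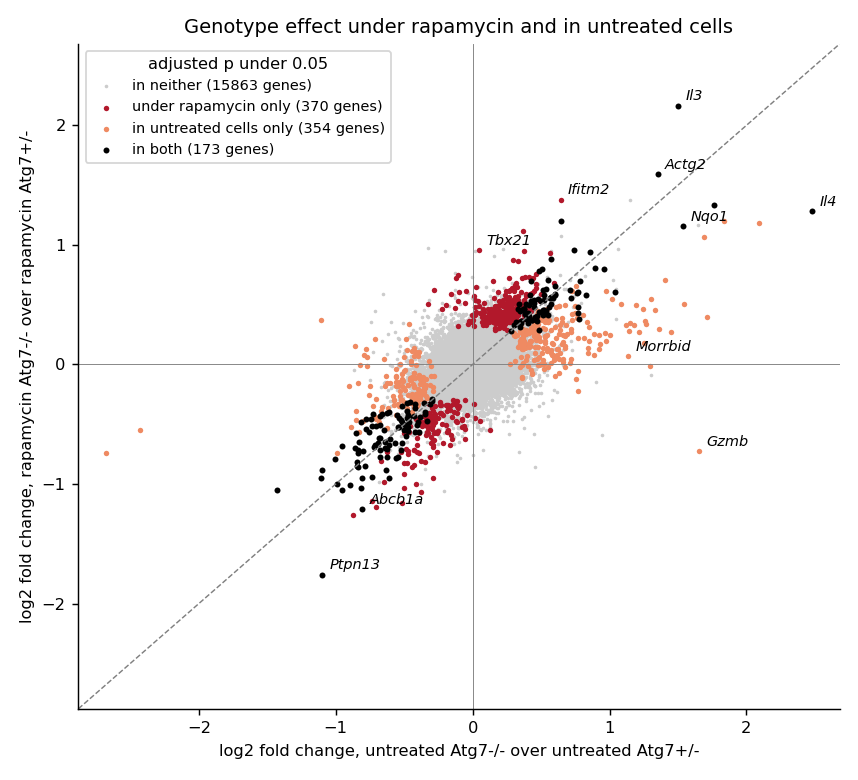
Log2 fold change of Atg7-/- over Atg7+/- cells under rapamycin (y axis) against that in untreated cells (x axis) for 16760 genes, coloured by the comparison in which limma's adjusted p was under 0.05, with the dashed line of equal effects. The 173 genes called in both lie in the 2 quadrants of equal sign, and Gzmb and Morrbid lie far below the line.

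Some genes had effects of unequal size in the 2 settings, none of which passed the adjusted test of the difference. Gzmb read 4.70 to 6.72 in rapamycin-treated Atg7-/- cells against 6.45 to 6.66 in rapamycin-treated Atg7+/- cells, and 8.60 to 8.92 in untreated Atg7-/- cells against 6.76 to 7.27 in untreated Atg7+/- cells. Its log2 fold change was -0.73 under rapamycin and 1.65 in untreated cells (difference -2.38 ± 0.42, adjusted p = 0.139). Morrbid, a noncoding RNA gene that restrains the pro-apoptotic gene Bcl2l11, had a log2 fold change of 0.07 under rapamycin and 1.14 in untreated cells (difference -1.07 ± 0.18, adjusted p = 0.139). Tbx21 differed in the other direction, with 0.96 under rapamycin and 0.05 in untreated cells (difference 0.91 ± 0.24, unadjusted p = 0.00124, adjusted p = 0.435). Trappc6a, a vesicle tethering subunit, and Nemp1, a nuclear envelope protein, had log2 fold changes of 0.50 and 0.46 under rapamycin and of -0.20 and -0.22 in untreated cells (adjusted p = 0.139 for both differences). Il4 rose in both settings, by 1.28 under rapamycin and by 2.48 in untreated cells (difference -1.20 ± 0.36, adjusted p = 0.609).

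The mitosis list held more genes with an unadjusted p under 0.05 for this difference than any other of the lists. Of 36 mitosis and kinetochore genes 0 passed limma's adjusted test under rapamycin (median 0.16), whereas 18 rose in untreated cells (median 0.50). Of all tested genes, 1.91% rose under rapamycin and 1.75% in untreated cells. Ube2c, the ubiquitin-conjugating enzyme of the anaphase-promoting complex, read 5.10, 5.78, 5.87 and 5.57 in rapamycin-treated Atg7-/- cells against 5.06, 5.16, 4.96 and 5.12 in rapamycin-treated Atg7+/- cells (log2 0.51 ± 0.15, adjusted p = 0.0704), and its log2 fold change in untreated cells was 1.09 ± 0.15. Ccna2, cyclin A2, had values of 0.50 ± 0.16 (adjusted p = 0.0952) under rapamycin and 1.19 ± 0.16 in untreated cells. The test of the difference had an unadjusted p under 0.05 for 16 of the 36 genes, all with the lower log2 fold change under rapamycin, and for 6.28% of all genes, but for 0 of the 36 after adjustment (smallest adjusted p = 0.31). On the first rapamycin Atg7-/- array the mean level of the list was 4.66, below all 4 Atg7+/- rapamycin arrays (4.95, 4.77, 4.78 and 4.87), while the other 3 Atg7-/- arrays read 5.16, 5.10 and 5.06 and lay above them. Of 39 DNA replication genes 1 rose under rapamycin (2.56%, near the 1.91% of all tested genes), and 6 rose in untreated cells. The 1 was Dut, the dUTPase (0.45 ± 0.10, adjusted p = 0.0212, 0.0757 at most without a single array and 0.0555 without Atg7-/- replicate 3).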

How the data were processed

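RNA from 16 samples was hybridised to Affymetrix mouse gene arrays after amplification of nanogram amounts, per the labels. The deposited values are on the log2 scale and were made with RMA in Partek 6.6, per the submitters' processing notes, which give no role or order for these tools. They ran from 1.49 to 13.5, were used as deposited, and 0 pairs of arrays were identical. The number of arrays limits the precision.

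Probe sets were named through the platform annotation: 23521 of 41345 carried a single gene symbol, 1814 more than 1, and no entry was given for 16010. The brightest row stood for a gene (1082 genes had more than 1), and a gene was tested if its highest group mean exceeded 3.55, the 30th percentile. Of 16760 tested genes, 16633 matched a RefSeq symbol. A model of 4 group means over all 16 arrays was fitted with limma 3.58.1 in R 4.3.3 (12 residual degrees of freedom), with Benjamini-Hochberg adjustment, and the threshold was 0.05. The third contrast was the difference of the 2 genotype effects. The fit was tested on simulated data, drawn as independent normal values with 1 spread per gene for all 4 groups. That simulation held neither the larger spread of the rapamycin Atg7-/- group nor an array that stands apart.

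The genes named are Atg7, Foxp3 and Myc, the 12 largest rises and 12 largest falls by log2 fold change among calls whose arrays did not overlap (leaving out predicted genes, clones, receptor segments and small RNA genes), up to 4 called members of each list by size of change (2 by p where none was called), the largest untreated and shared changes, and the 3 smallest p of the difference in each direction. Genes that kept their call in every alternative, and the promoters and microRNAs printed, were chosen after values were seen. Members and lists were chosen with earlier results of these data known. Alternatives covered arrays, filters, scaling, probe set choice, variance model, array weights, the replicate number and gene length. Promoter windows and microRNA sequences came from RefSeq tables (GRCm38.p6), and motif letters were searched on both strands.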

Additional observations from a re-analysis of the deposited data

Results flagged for a closer look

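In 13 of 268 groups of 4 arrays, over 134 genes named here and 2 rapamycin groups, 1 array stood farther from its group than the critical value of Dixon's test allows, and chance flags about 1 group in 20. Of these, 7 were the third Atg7-/- array, the one that stood apart on the second principal component. On it Hspa1a read 8.27 (4.84 to 5.37 on the other 3 Atg7-/- arrays) and Hspa1b 9.39 (5.72 to 6.31), both inducible Hsp70 genes. Prg2, an eosinophil granule protein gene, read 4.86 there (3.71 to 3.81). Ppic read 7.09 (6.15 to 6.22), Ndufb3 7.86 (7.35 to 7.41), Cd3d 10.63 (10.35 to 10.36) and Selenos, a selenoprotein of the endoplasmic reticulum, 9.92 (9.54 to 9.58). The first Atg7-/- array gave Myo3b 4.61 (5.50 to 5.63) and the second gave Etfb 8.13 (8.36 to 8.38). Among Atg7+/- arrays, the first gave Trappc6a 6.91 (6.75 to 6.77), Rab27a 7.96 (7.78 to 7.80) and Dgat1 9.26 (9.64 to 9.69), and the second gave Psmb1 9.74 (9.98 to 10.01).

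Probe sets without a single gene symbol are outside the comparisons above. Of 12776 tested, 184 differed between rapamycin-treated Atg7-/- and Atg7+/- cells (limma adjusted p under 0.05), 51 higher and 133 lower, which is 1.44%, against 1.71% of the probe sets with a single symbol tested in the same fit of 30582.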

How the results depend on the processing

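The count of 543 genes under rapamycin became 20 with only the 8 arrays of the comparison, 820 with a filter at the 50th percentile, 350 with arrays centred on the median (which moved the median of all genes to 0.08) and 886 with a trended, robust variance model. It was 95 to 789 when a single array was left out. The untreated count of 527 became 318 with centred arrays and 974 with array weights, and 284 to 694 without a single array. The difference between the genotype effects called 0 genes in every setting except 1 gene without rapamycin Atg7-/- replicate 2. With the replicate block the counts were 592, 529 and 0. Under it Ifng, Il13, H2ac10, Psma1, Lamtor2 and Mir15b passed the adjusted threshold and Wars, Pgam1, Hk2 and Mir27a did not. Deviations of same-numbered rapamycin arrays correlated at 0.24, 0.19, 0.36 and -0.07 and of untreated arrays at -0.03, 0.02, 0.07 and 0.04, and since 1 rapamycin pair and the untreated pairs were under 0.1 the numbers were not taken to pair the arrays. Removing the trend with gene length, an alternative chosen after seeing the data, gave 527 genes under rapamycin.

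Of 84 named genes that were called, 8 kept the call in all 26 alternatives (Actg2, Tnfsf14, Ccl1, Plagl1, Neurl3, Nav2, Abcb1a and Ptpn13), 50 lost it without some rapamycin array and 0 changed direction. Among genes not called, Myc turned to 0.03 with centred arrays, 0.01 without rapamycin Atg7+/- replicate 2 and 0.02 without rapamycin Atg7-/- replicate 3, S100a9 to -0.01 without that same Atg7-/- array, and Morrbid to -0.01 without rapamycin Atg7+/- replicate 3. Without a single array Myc ran from -0.07 to 0.02, S100a9 from -0.01 to 0.92 and Morrbid from -0.01 to 0.15. The medians of 31 of 43 gene lists kept their sign throughout. The cause of these shifts was not tested.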

Other observations

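Long genes were lower more often than short ones in rapamycin-treated Atg7-/- cells relative to rapamycin-treated Atg7+/- cells. Of genes over 100 kb, 2.99% fell and 0.69% rose, and of genes under 3 kb, 0.59% fell and 2.16% rose. The Spearman correlation of the log2 fold change with gene length was -0.09 across 16633 genes under rapamycin and -0.07 in untreated cells, both across genes, which are not independent replicates. Odorant and vomeronasal receptor genes, which T cells are not known to use, had 4 of 286 members called (1.40%, against 3.24% of all tested genes).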
